A study of Mus musculus with 10 samples.

Results

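The genes described here are 10 surface and identity genes of endothelial cells, the cells that line blood vessels: the sialomucin genes Emcn, Cd34 and Podxl, the junction and adhesion genes Pecam1, Cdh5, Esam and Icam2, the receptor genes Tie1 and Robo4, and Vwf. They were chosen by name, as the probe sets of the array whose annotation gives exactly 1 symbol equal to one of these names. All 10 genes were found, on 12 of 22626 probe sets, and make up 10 of the 12393 genes measured with 1 symbol. Each gene was represented by its brightest probe set on average across the arrays, and the other probe sets of Podxl and Cdh5 served as a check. The lungs came from male C57BL/6 mice, an inbred strain, 6 to 8 weeks old. Normoxia lungs (5 mice) came from control animals and intermittent hypoxia lungs (5 mice) from animals exposed to repeated falls and recoveries of inspired oxygen, with no genetic change or other agent named in either group. Total RNA of each whole lung was hybridised to its own Affymetrix Mouse Genome 430A 2.0 array. The depth and length of the exposure are not given in the sources used here.

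Endothelial cells make up a large share of the lung, because each alveolus is wrapped in a dense capillary net. Their surface carries sialomucins, heavily glycosylated proteins that hold leukocytes off or, when suitably sulfated, bind L-selectin. Their contacts are held by VE-cadherin, PECAM-1 and immunoglobulin-type proteins, and a receptor layer that includes TIE1 and ROBO4 tunes the tightness of these contacts. Endomucin is known as a marker of capillaries and veins that arteries largely lack, whereas von Willebrand factor is stored in the granules of larger vessels and is sparse in lung capillaries.

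For 3 of these genes the 250 bases before the transcription start are shown, because Emcn and Cd34 were the members that rose and Tie1 is a member that did not pass. The sequences are from RefSeq on GRCm38.p6, read 5′ to 3′ along the gene, and capitals mark the letters GGAA or, on the other strand, TTCC, the core bound by ETS transcription factors, which drive many endothelial genes. The Emcn window is chr3:137340828-137341077 on the plus strand, the Cd34 window chr1:194938571-194938820 on the plus strand and the Tie1 window chr4:118489850-118490099 on the minus strand. The last 16 bases of the Emcn window lie within the gene's span in the RefSeq gene table.
Emcn: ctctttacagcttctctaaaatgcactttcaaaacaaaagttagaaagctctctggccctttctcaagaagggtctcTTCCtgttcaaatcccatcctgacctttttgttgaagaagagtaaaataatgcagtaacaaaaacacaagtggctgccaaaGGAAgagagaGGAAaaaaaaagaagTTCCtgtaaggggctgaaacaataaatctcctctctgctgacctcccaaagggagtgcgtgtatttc
Cd34: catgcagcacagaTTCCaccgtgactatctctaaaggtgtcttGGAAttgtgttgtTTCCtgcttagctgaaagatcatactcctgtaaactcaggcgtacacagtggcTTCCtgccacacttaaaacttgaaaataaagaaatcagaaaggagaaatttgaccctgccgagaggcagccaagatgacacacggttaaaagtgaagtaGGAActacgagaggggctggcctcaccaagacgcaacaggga
Tie1: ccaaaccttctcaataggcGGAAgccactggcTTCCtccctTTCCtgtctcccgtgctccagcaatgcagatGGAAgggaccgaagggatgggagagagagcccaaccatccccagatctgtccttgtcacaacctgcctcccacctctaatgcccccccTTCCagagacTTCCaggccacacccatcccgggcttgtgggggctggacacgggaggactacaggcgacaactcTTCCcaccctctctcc

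The core stood 4 times in the Emcn window, 5 times in that of Cd34, 7 times in that of Tie1 and 3 times in the window of the same length for Robo4, the other member with an entry. The last 70 bases of the Robo4 window lie within the gene's span in the gene table, and all 3 of its cores are among them. Over 32851 promoters of the table the median was 3 and 93.4% held at least 1 core, so it is common in any such window. The hypoxia-inducible factor core written GCGTG or, on the other strand, CACGC stood once in the Emcn window, beginning 11 bases from its end and so within the gene's span in the gene table, and 28.2% of promoters held it. The other form, ACGTG or CACGT, was in none of the 4 windows (16.6% of promoters). None of the 4 windows held the GATA motif GATAA or TTATC (22.6%), the E-box CACGTG (6.02%), which contains ACGTG, or the TATA box TATAAA or TTTATA (12.4%). The CCAAT box, CCAAT or ATTGG, stood once in the Robo4 window (33.8%). These matches describe letters and do not show binding.

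The arrays carried log2 levels with medians between 7.69 and 7.73. The arrays of normoxia mice 2, 3 and 4 had a narrower spread over probe sets (SD 1.89 to 1.93) than the other 7 (1.99 to 2.05), and results of the members are also given without these 3. All 11 measured lung epithelial markers had mean levels of at least 9.27 on the log2 scale, so the tissue's defining transcripts were present on these arrays.

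Of the 10 endothelial genes, Emcn and Cd34 rose after intermittent hypoxia and none fell, at a limma p-value adjusted over all probe sets below 0.05. Emcn reached 2.04 times and Cd34 1.60 times its normoxia level, while 8 genes did not pass, with differences from -0.35 for Vwf to 0.42 for Pecam1 on the log2 scale. The series concerns intermittent hypoxia and the alveolar surface, and the comparison asked how transcripts of exposed and control lungs differ. Over all genes with 1 symbol 8.93% were higher and 3.6% lower by the same rule, and 2 of 10 members is not far from that background. The median log2 difference of the members was 0.20, against 0.01 over all genes, and 9 of 10 were positive, against 53.2% of all genes. In whole-lung RNA, fewer cells of a type and less RNA per cell cannot be told apart. The median of the members was 0.06 after quantile normalization and 0.03 without normoxia arrays 2 to 4, so their common positive shift depended on these choices.

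**Figure D1:**
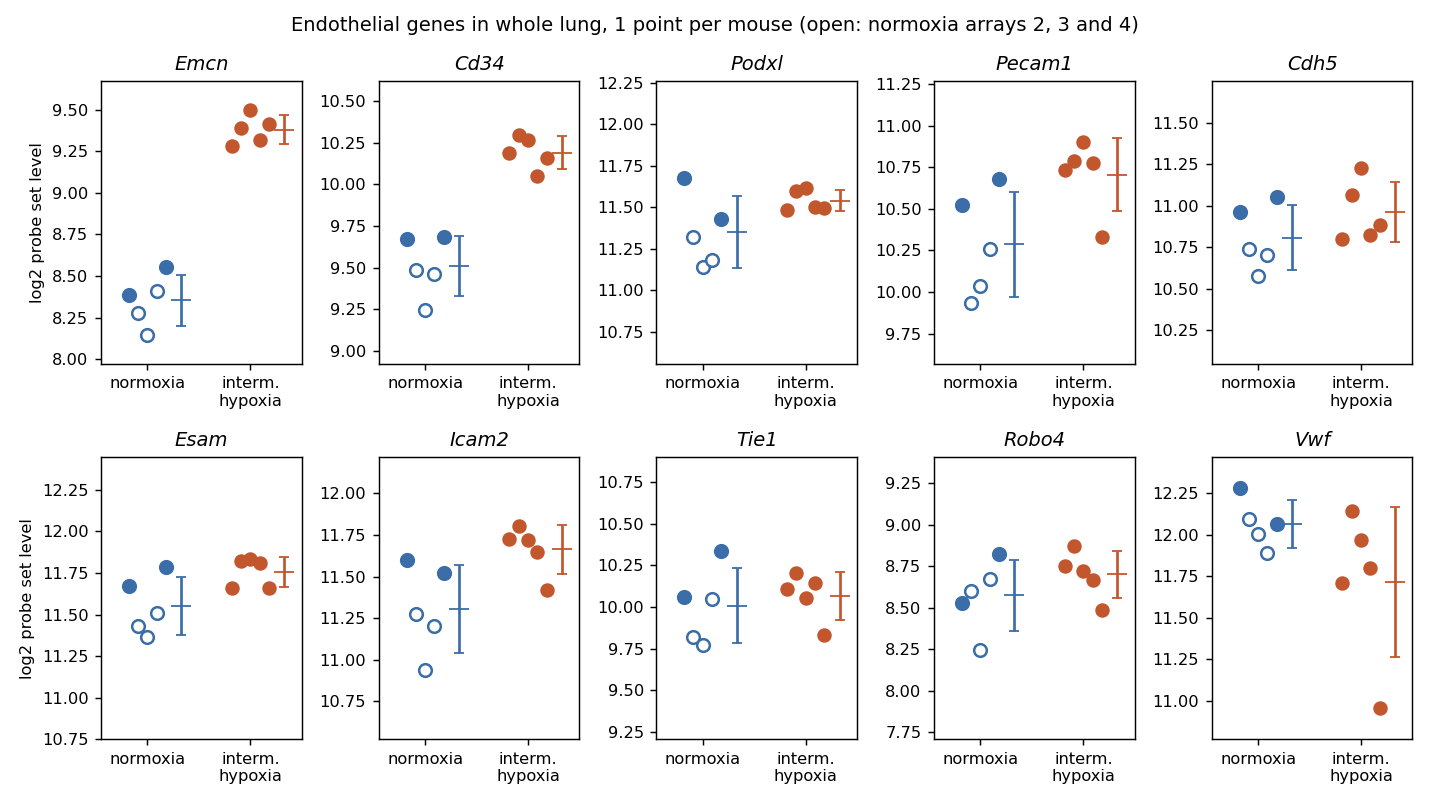
Log2 probe set level (vertical axis, the same span in each panel) of each of the 10 genes in each mouse, with normoxia in blue and intermittent hypoxia in orange. Open circles are normoxia arrays 2, 3 and 4, and the bars give mean and SD of 5 arrays. The groups stand apart for Emcn and Cd34 and overlap for the other 8 genes.

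Emcn encodes endomucin, a sialomucin of capillary and venous endothelium that limits leukocyte adhesion. It lies on chromosome 3 (GRCm38.p6, 137341062 to 137431069). Its log2 levels were 8.39, 8.28, 8.14, 8.41 and 8.55 on normoxia arrays 1 to 5. On intermittent hypoxia arrays 1 to 5 they were 9.28, 9.39, 9.50, 9.32 and 9.42. The lowest exposed lung (9.28) lay far above the highest control (8.55), and the groups did not overlap. The mean went from 8.36 ± 0.15 to 9.38 ± 0.09 (SD, n = 5 each), a log2 difference of 1.03 with a 95% interval from 0.85 to 1.20 (limma adjusted p = 9.34e-05). By p-value Emcn was 1st of the 12393 genes, each read on its brightest probe set. A further probe set of Slc4a1, a red cell marker gene, had a smaller limma adjusted p (8.53e-08). The Emcn difference was 0.91 without normoxia arrays 2 to 4 (limma adjusted p = 0.00775), and Emcn was the only member that still passed.

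Cd34 encodes a sialomucin of capillary endothelium that blood progenitors and many fibroblasts also carry. It lies on chromosome 1 (194938821 to 194961292). Its log2 levels were 9.67, 9.49, 9.25, 9.46 and 9.68 on normoxia arrays 1 to 5. On intermittent hypoxia arrays 1 to 5 they were 10.19, 10.30, 10.27, 10.05 and 10.16. Every exposed lung stood above every control, with normoxia arrays 1 and 5 nearest to the exposed range. The mean went from 9.51 ± 0.18 to 10.19 ± 0.10 (SD, n = 5 each), a log2 difference of 0.68 with a 95% interval from 0.49 to 0.87 (limma adjusted p = 0.00193, 20th of all genes by p). The difference was 0.51 without normoxia arrays 2 to 4 and did not pass (limma adjusted p = 0.0748). Over all genes 5.76% had every exposed lung above every control, as Emcn and Cd34 did.

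Podxl encodes podocalyxin, an anti-adhesive sialomucin of the CD34 family that kidney podocytes and mesothelium also make. Its levels lay between 11.14 and 11.68 in controls and between 11.49 and 11.61 in exposed lungs. The exposed lungs lay within the control range, and the log2 difference was 0.19 (SE 0.09, limma adjusted p = 0.181), with a 95% interval from -0.01 to 0.39. It passed without normoxia array 1, the highest control (0.27, adjusted p = 0.0325), and was -0.013 without normoxia arrays 2 to 4. Its second probe set had the opposite sign, -0.16 (SE 0.13, limma adjusted p = 0.404), at levels of 6.95 to 7.80.

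Pecam1 encodes PECAM-1 (CD31), an immunoglobulin-type protein that binds itself across endothelial contacts and is also found on platelets and leukocytes. Its log2 levels were 10.52, 9.94, 10.04, 10.26 and 10.68 on normoxia arrays 1 to 5. On intermittent hypoxia arrays 1 to 5 they were 10.73, 10.79, 10.90, 10.78 and 10.33. Normoxia arrays 1 and 5 lay above hypoxia array 5, so the groups overlapped, and 4 of the 5 exposed lungs were above every control. The log2 difference was 0.42 (SE 0.14) with a 95% interval from 0.11 to 0.73, and it did not pass (limma adjusted p = 0.0720). It passed without normoxia array 5 (0.52, adjusted p = 0.0200), without hypoxia array 5 (0.51, adjusted p = 0.0314) and with arrayWeights (0.45, adjusted p = 0.0374). It was 0.10 without normoxia arrays 2 to 4 (limma adjusted p = 0.876).

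Icam2 encodes a constitutive endothelial ligand of the leukocyte integrin LFA-1. Its log2 levels were 11.60, 11.27, 10.94, 11.21 and 11.52 on normoxia arrays 1 to 5. On intermittent hypoxia arrays 1 to 5 they were 11.73, 11.81, 11.72, 11.65 and 11.42. Of the exposed lungs only array 5 fell within the control range, as for Pecam1. The log2 difference was 0.36 (SE 0.12, limma adjusted p = 0.0637), with a 95% interval from 0.10 to 0.61. The test passed with SAM, the study's stated method (0.0474), and with arrayWeights (0.0356). It also passed without normoxia array 1 (0.0282) or 5 (0.0316) or hypoxia array 5 (0.0393). Without normoxia arrays 2 to 4 the difference was 0.10 (limma adjusted p = 0.824).

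Cdh5 encodes VE-cadherin, the main adhesion protein of endothelial adherens junctions. Its levels, 10.57 to 11.05 in controls and 10.80 to 11.22 in exposed lungs, overlapped widely. The log2 difference was 0.15 (SE 0.11, limma adjusted p = 0.340), with a 95% interval from -0.08 to 0.38, and the second probe set gave 0.14 (SE 0.10, adjusted p = 0.381). After quantile normalization the difference was -0.0010. Esam, an immunoglobulin-type protein of endothelial tight junctions and platelets, ran from 11.37 to 11.79 and from 11.66 to 11.83. Its log2 difference of 0.20 (SE 0.08) did not pass (limma adjusted p = 0.123), except without normoxia array 5, the highest control (0.26, adjusted p = 0.0330). After quantile normalization it was 0.04.

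Neither receptor gene passed. Tie1 encodes an orphan receptor tyrosine kinase that modulates angiopoietin signalling through TEK. Control lungs had 9.77 to 10.34 and exposed lungs 9.83 to 10.21, and the log2 difference was 0.06 (SE 0.11, limma adjusted p = 0.721). Its 95% interval from -0.17 to 0.29 covers changes in either direction, and the sign turned after quantile normalization (-0.09) and without normoxia arrays 2 to 4 (-0.13). Robo4 encodes the endothelial roundabout receptor, which stabilises the vessel barrier. It ran from 8.24 to 8.82 and from 8.49 to 8.87, with a log2 difference of 0.13 (SE 0.10, limma adjusted p = 0.417) and a 95% interval from -0.09 to 0.35.

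Vwf, which encodes the platelet-binding protein von Willebrand factor of endothelial granules and platelets, was the member with a negative difference. Its log2 levels were 12.28, 12.10, 12.00, 11.89 and 12.07 on normoxia arrays 1 to 5. On intermittent hypoxia arrays 1 to 5 they were 11.71, 12.14, 11.97, 11.80 and 10.96. Hypoxia array 5 was lowest by a wide margin, while hypoxia arrays 2 and 3 lay within the control range. The log2 difference was -0.35 (SE 0.17) and did not pass (limma adjusted p = 0.187), with a 95% interval from -0.73 to 0.03. Without hypoxia array 5 it was -0.16, and after quantile normalization -0.52 (adjusted p = 0.0528). Platelet and megakaryocyte markers, which share Vwf with the endothelium, were lower in 2 of 8 measured genes and none was higher. Over all genes 3.6% were lower and 8.93% higher. All 8 log2 differences of the platelet list were negative, with a median of -0.37. Clec1b, a receptor on platelets, fell by 0.59 (SE 0.16) and Gp1bb, a subunit of the platelet receptor for von Willebrand factor, by 0.58 (SE 0.18), with limma adjusted p values of 0.0373 and 0.0486. The call of Clec1b failed when normoxia array 3 or 4 or any of hypoxia arrays 1 to 4 was left out (adjusted p up to 0.0876). That of Gp1bb failed without each of these and without normoxia array 1 (up to 0.106). The other probe set of Gp1bb differed by -0.16 and did not pass (adjusted p = 0.170). The mean of the 8 platelet genes, each centred over the arrays, lay between -0.06 and 0.69 in normoxia, highest on array 1, and between -0.36 and 0.09 in exposed lungs, highest on array 5. Hypoxia array 5, the lowest for Vwf, thus had the highest platelet mean of its group, and the part of platelets in the Vwf values was not tested.

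**Figure D2:**
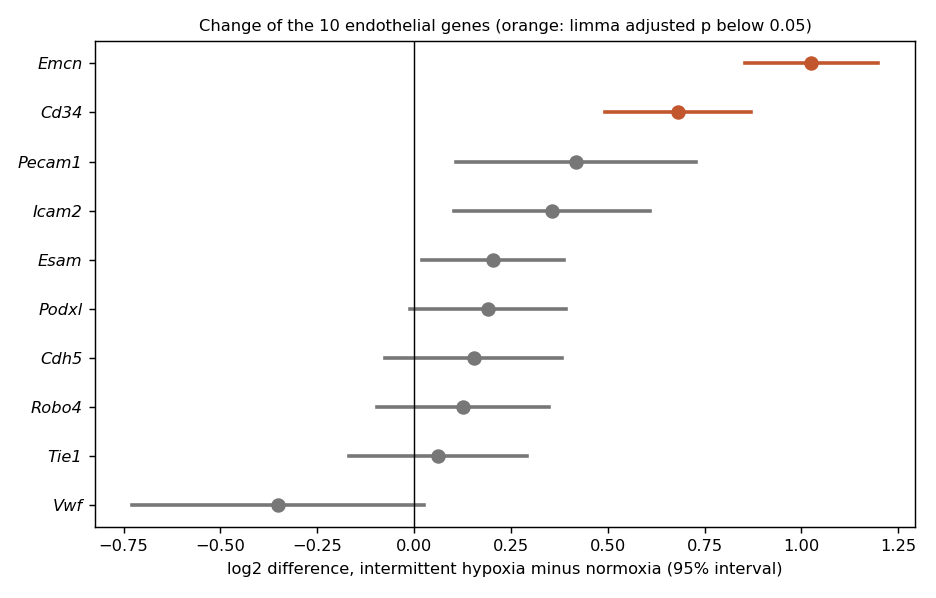
Log2 difference between intermittent hypoxia and normoxia (horizontal axis) for each of the 10 genes, with the 95% interval of the limma fit. The intervals of Emcn (0.85 to 1.20) and Cd34 (0.49 to 0.87), in orange, are the ones whose adjusted p was below 0.05.

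Several members were low on the same control arrays. Normoxia arrays 2, 3 and 4 were all below normoxia arrays 1 and 5 for 7 of the 10 genes, the exceptions being Emcn, Robo4 and Vwf, and 29.1% of all genes showed this order. The mean of the 10 genes, each centred over the arrays, was -0.23, -0.38 and -0.19 on normoxia arrays 2, 3 and 4 and 0.01 and 0.07 on normoxia arrays 1 and 5. On hypoxia arrays 1 to 5 it was 0.12, 0.27, 0.26, 0.13 and -0.06. Hypoxia array 5 thus fell below normoxia arrays 1 and 5 in this mean, although its Emcn and Cd34 levels were above both. The SD in normoxia exceeded that in intermittent hypoxia for 9 of 10 members, all but Vwf, against 61.6% of all genes.

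A change shared by all endothelial transcripts on an array cancels in the ratio of 2 members on that array. The log2 ratio of Emcn to each of 9 members and of Cd34 to each of 8 was therefore compared between the groups, 17 pairs in all, by exact two-sided permutation tests whose smallest possible p is 0.00794. All 9 ratios of Emcn were higher in every exposed lung than in every control (exact permutation p = 0.00794, Benjamini-Hochberg adjusted over the 17 pairs 0.00843, for each). Emcn and Cd34 stood apart in level already, so their ratios to any gene of little change can stand apart too. The share of such ratios over genes outside the members was not computed. Emcn gained 0.34 on Cd34, 0.61 on Pecam1, 0.67 on Icam2, 0.82 on Esam, 0.84 on Podxl and 0.87 on Cdh5 on the log2 scale. It gained 0.90 on Robo4, 0.96 on Tie1 and 1.38 on Vwf.

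Cd34 also gained on 7 of 8 members in every exposed lung, by 0.32 on Icam2 up to 1.03 on Vwf, at the same p. Its gain of 0.26 on Pecam1 did not pass (exact permutation p = 0.0794, also after adjustment), and the ratios overlapped. Without normoxia arrays 2 to 4 the gains of Emcn ran from 0.40 on Cd34 to 1.37 on Vwf, and that of Cd34 on Cdh5 was 0.56. With 2 controls left no pair can pass the threshold, as the smallest adjusted p is then 0.0952. The members were known to differ in this way from earlier results, so these ratios describe unequal change and are no independent support for it.

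**Figure D3:**
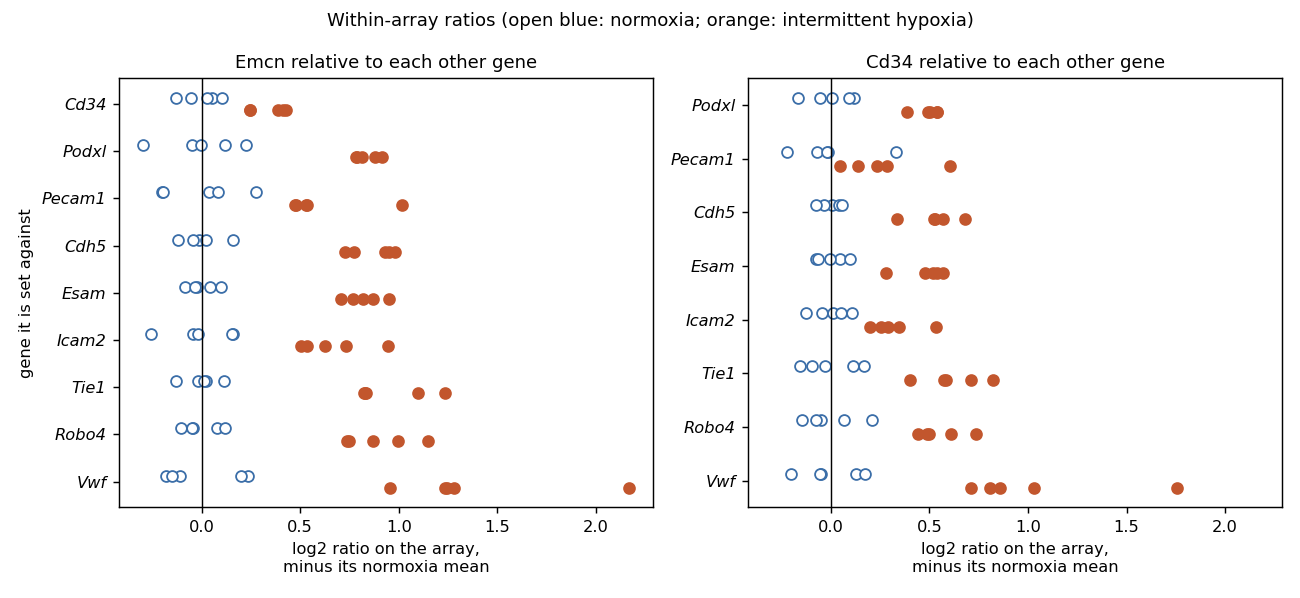
Log2 ratio of Emcn (left) and of Cd34 (right) to each other member on the same array, minus the mean of that ratio in normoxia (horizontal axis), with 5 normoxia arrays as open blue circles and 5 intermittent hypoxia arrays in orange. The groups stand apart in 16 of 17 rows and overlap for Cd34 against Pecam1.

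Of 25 other genes found across endothelial cells none passed as higher and 2 fell, which is not far from the 8.93% and 3.6% over all genes. Their log2 differences were positive for 15 and negative for 10, with a median of 0.04, and of -0.02 after quantile normalization. Lyve1, a hyaluronan receptor best known from lymphatic endothelium that lung capillaries and macrophages can also express, fell by 0.56 (SE 0.11, limma adjusted p = 0.0119). Its other probe set differed by -0.19 and did not pass (adjusted p = 0.444). Ramp2, the subunit that turns the calcitonin-receptor-like receptor into an adrenomedullin receptor, fell by 0.30 (SE 0.07, limma adjusted p = 0.0220). The Ramp2 call failed on leaving out normoxia array 2 or hypoxia array 1 or 4 (adjusted p up to 0.0561). Leaving out single arrays gave 0 to 6 higher and 1 to 2 lower genes in this list, and quantile normalization 0 higher and 6 lower, so the count of this list moved with the processing.

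Among 24 transcription factors of endothelial identity 6 rose and 1 fell, against 8.93% higher and 3.6% lower over all genes. Their log2 differences were positive for 16 and negative for 8, with a median of 0.12. After quantile normalization 5 rose and 2 fell, and the median was 0.007. Mef2c, a MADS-box factor of vascular and muscle development, rose by 0.50 (SE 0.07, limma adjusted p = 0.00300), and all 4 of its other probe sets had positive differences, of which 1 passed. Sox17, a factor of arterial identity, rose by 0.54 (SE 0.09, adjusted p = 0.00601), and by 0.57 on its second probe set. Elk3, an ETS factor, rose by 0.64 (SE 0.11, adjusted p = 0.00788), and by 0.48 and 0.65 on 2 further probe sets. These 3 calls held without any single array and after quantile normalization. Without normoxia arrays 2 to 4 none of the 24 passed, in a setting where 0.0707% of all probe sets passed. The differences of Mef2c, Sox17 and Elk3 were then 0.47, 0.33 and 0.38.

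The next lists are again read against 8.93% higher and 3.6% lower over all genes. Among 21 measured ligands and partners of the members 3 rose and 1 fell, not far from these shares, with a median of 0.09. After quantile normalization, where 10.1% of all probe sets passed, 1 rose and 2 fell, with a median of 0.01. Itgb2, the beta chain of LFA-1, which binds ICAM-2, rose by 0.58 (SE 0.14, limma adjusted p = 0.0226) but not without normoxia array 2 or 3 or hypoxia array 2 (up to 0.0608). Slit2, a ligand of roundabout receptors, rose by 0.30 (SE 0.08, adjusted p = 0.0291), a call that failed on leaving out one of normoxia arrays 2 to 4 or one of hypoxia arrays 1 to 3 (up to 0.0793). Its other probe set differed by 0.07. Selp, the gene of P-selectin, which is stored in the same granules as von Willebrand factor, fell by 0.39 (SE 0.10, adjusted p = 0.0333), but not on leaving out one of normoxia arrays 2 to 4 or hypoxia array 1, 3 or 5 (up to 0.0857). Of 12 adherens and tight junction genes none passed, with a median of 0.11 that became 0.02 after quantile normalization, and the smallest p was that of the beta-catenin gene Ctnnb1 (0.26, SE 0.09, limma adjusted p = 0.0774). Of 7 other sialomucins and mucin-like genes 1 rose and 1 fell. Madcam1, a mucosal vascular addressin, fell by 0.31 (SE 0.07, limma adjusted p = 0.0182). Cd164, a widely expressed sialomucin, rose by 0.32 (SE 0.08, adjusted p = 0.0272), but not on leaving out one of normoxia arrays 2 to 4 or of hypoxia arrays 1 to 4 (up to 0.0726). Its other probe set differed by -0.06 (adjusted p = 0.465).

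The markers of vessel classes form short lists, in which 1 or 2 genes are read against 8.93% higher and 3.6% lower over all genes. The log2 differences went both ways in each list. They were positive for 7 of 12 arterial, 3 of 8 venous, 6 of 9 general capillary and 6 of 9 aerocyte markers. The medians were 0.07, -0.05, 0.16 and 0.02. Of 12 arterial markers 2 rose, Sox17 and Ltbp4, a latent TGF-beta binding protein (0.45, SE 0.13, limma adjusted p = 0.0380). Of 8 venous markers 2 fell, Selp and Slc6a2, a noradrenaline transporter gene, by 0.30 (SE 0.07, adjusted p = 0.0163). The mean level of Slc6a2 was 6.29, below the median of every array. Of 9 markers of general capillary cells 2 rose and 1 fell. Aplnr, the apelin receptor, rose by 1.15 (SE 0.21, adjusted p = 0.00915), Sema3c, a semaphorin, by 0.43 (SE 0.13, adjusted p = 0.0474), and Lpl, the lipase held on capillary walls, fell by 0.49 (SE 0.12, adjusted p = 0.0224).

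Of 9 markers of aerocytes, the large capillary cells of the gas-exchange surface, 2 rose and 1 fell. Fibin, a secreted protein gene, fell by 0.44 (SE 0.08, limma adjusted p = 0.00768). Icam1, an inducible leukocyte ligand that epithelium also carries, rose by 0.53 (SE 0.10, adjusted p = 0.00915). Sirpa, a receptor for CD47 also found on macrophages, rose by 0.42 (SE 0.10, adjusted p = 0.0207). The 2 other probe sets of Sirpa differed by 0.11 and 0.13 and did not pass (adjusted p = 0.205 and 0.190). Of 6 lymphatic markers 1 fell, Lyve1, and the level of the lymphatic factor gene Prox1 was 4.52 in normoxia and 4.48 in intermittent hypoxia. Of these vessel-class genes, Sox17, Slc6a2, Aplnr, Fibin, Icam1 and Lyve1 kept their calls without any single array. Ltbp4 and Sema3c each lost theirs without any of 7 arrays (up to 0.0926 and 0.110), Sirpa without any of 4 (up to 0.0598) and Lpl without 2 (up to 0.0531). Among the arrays in question were normoxia array 4 for all 4 genes, normoxia array 3 and hypoxia array 1 for all but Lpl, and hypoxia array 3 for all but Sirpa. Normoxia array 2 and hypoxia array 4 mattered for Ltbp4 and Sema3c, hypoxia array 2 for Ltbp4 and Sirpa, and hypoxia array 5 for Sema3c.

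**Figure D4:**
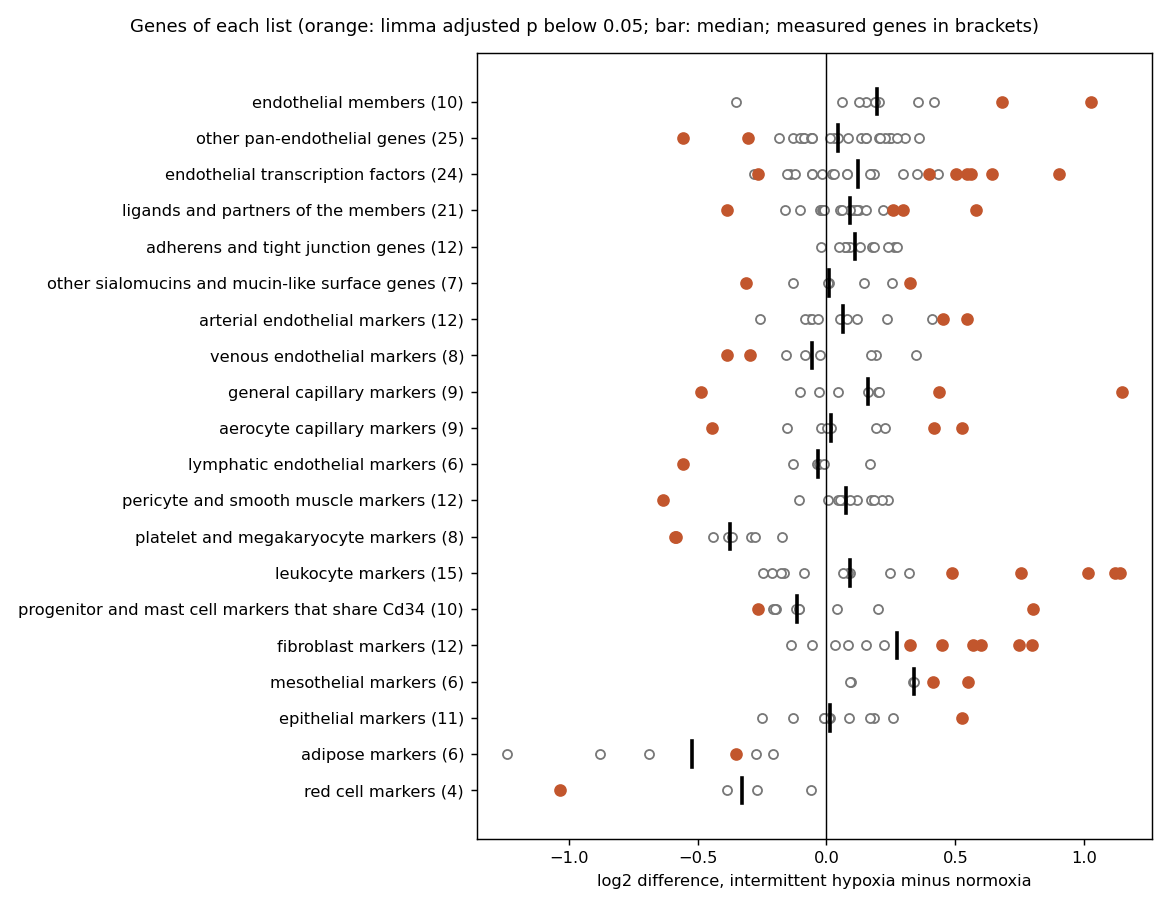
Log2 difference between intermittent hypoxia and normoxia (horizontal axis) of the measured genes of each list (rows), with genes at a limma adjusted p below 0.05 in orange and the list's median as a bar. Emcn and Cd34 are the orange points of the top row, whereas the 25 other endothelial genes have a median of 0.04 (-0.02 after quantile normalization).

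The next lists hold markers of other cells that can carry some of the members, and their counts stand against 8.93% higher and 3.6% lower over all genes. Of 12 fibroblast markers, among cells that can carry CD34, 6 rose, none fell and 6 did not pass, with a median of 0.27. After quantile normalization, where 10.1% of all probe sets passed, 6 rose and 1 fell, with a median of 0.14. Without normoxia arrays 2 to 4, where 0.0707% of all probe sets passed, none of the 12 passed (median 0.24). Their mean, centred over the arrays, was at most 0.00493 in controls (lowest -0.32) and at least 0.02 in exposed lungs (highest 0.28), so the groups did not overlap. The collagen genes Col1a1, Col14a1 and Col13a1 rose by 0.80 (SE 0.12), 0.60 (SE 0.10) and 0.75 (SE 0.13), each at a limma adjusted p below 0.05 (0.00422, 0.00594 and 0.00646). Further probe sets of Col1a1 and Col14a1 both differed by 0.22 and did not pass. Among the 12 fibroblast differences 10 were positive and 2 negative. The negative ones were Pdgfra (-0.14, limma adjusted p = 0.370) and Tcf21 (-0.06, limma adjusted p = 0.750). Of 10 markers of progenitors and mast cells, which can also carry CD34, 1 rose and 1 fell, near the shares over all genes, with a median of -0.11. Cd48, a surface protein of many leukocytes, rose by 0.80 (SE 0.15, adjusted p = 0.00885), and Gata2, a factor shared with endothelium, fell by 0.27 (SE 0.07, adjusted p = 0.0274). The Gata2 call failed on leaving out normoxia array 2 or 4 or one of hypoxia arrays 1 to 3 (up to 0.0640). The part of fibroblasts and progenitors in the rise of Cd34 was not tested.

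Of 15 leukocyte markers, some on cells that carry PECAM-1, 5 rose and none fell, among them the pan-leukocyte gene Ptprc (0.75, SE 0.14, limma adjusted p = 0.00861). The T cell gene Cd3d rose by 0.49 (SE 0.09, adjusted p = 0.00917) and the B cell gene Cd79a by 1.01 (SE 0.20, adjusted p = 0.0110). The T cell genes Cd3e (-0.09, adjusted p = 0.524) and Cd8a (0.06, adjusted p = 0.624) did not pass. Of the 15 log2 differences 10 were positive and 5 negative. The leukocyte mean was -0.23 to 0.03 in controls and -0.04 to 0.34 in exposed lungs, and its part in the Pecam1 values was not tested. Of 6 mesothelial markers, whose cells carry podocalyxin, 2 rose and 4 did not pass. Gpm6a, a membrane glycoprotein gene, rose by 0.41 (SE 0.07, limma adjusted p = 0.00764) but had an adjusted p of 0.0566 after quantile normalization, and Upk3b, a uroplakin gene, by 0.55 (SE 0.15, adjusted p = 0.0334). The Upk3b call held on leaving out normoxia array 5 or hypoxia array 1 and failed on leaving out any of the other 8 (up to 0.0840). The mesothelial mean ran from -0.36 to 0.12 and from 0.05 to 0.28.

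The remaining lists cover cells that are not known for these members, and their counts stand against 8.93% higher and 3.6% lower over all genes. Of 12 pericyte and smooth muscle markers 1 fell, the pericyte gene Rgs5 by 0.63 (SE 0.14, limma adjusted p = 0.0166), with 1 of its 3 other probe sets also passing (-0.26, adjusted p = 0.0380). Of 11 epithelial markers 1 rose, the water channel gene Aqp5 (0.53, SE 0.10, adjusted p = 0.00915). Of 6 adipose markers 1 fell, Retn (-0.35, SE 0.10, adjusted p = 0.0464). Its call held on leaving out normoxia array 1 or hypoxia array 5 and failed on leaving out any of the other 8 (up to 0.116). All 6 adipose differences were negative, from -1.24 to -0.21, with a median of -0.52. Of 4 red cell markers 1 fell, the anion exchanger gene Slc4a1 (-1.03, SE 0.15, adjusted p = 0.00409). Its 2 other probe sets differed by 0.07 (limma adjusted p = 0.554) and -1.96 (limma adjusted p = 8.53e-08). Without normoxia arrays 2 to 4 Slc4a1 was the only gene of these lists beside Emcn that passed (-1.15, adjusted p = 0.0156). After quantile normalization, besides Gpm6a, the calls of Slit2, Cd164, Sirpa, Hhex, Upk3b, Sema3c, Gp1bb, Ltbp4 and Msn missed the threshold (adjusted p from 0.0527 to 0.117). Hhex is counted above among the transcription factors that rose and Msn among the ligands and partners that rose.

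The members and genes with clone names were left out of the next ranking. Among the rest, the genes whose levels followed Emcn most closely were ranked by Pearson's r over the 10 arrays, as a description in which the group difference is included. They were Pdgfb, a growth factor gene that draws pericytes to vessels (0.984), Lclat1, an acyltransferase gene (0.980), Sema3a, a semaphorin gene (0.977), Igfbp3, a binding protein of insulin-like growth factors (0.968), and Galnt11, which starts mucin-type O-glycosylation (0.967). For Cd34 they were Fam174b (0.989), the sodium channel subunit gene Scn3b (0.988), Bcap29 (0.987), Pdgfb (0.983) and Hs2st1, a heparan sulfate sulfotransferase gene (0.982). Pdgfb stood on both lists and rose by 0.79 (SE 0.09, limma adjusted p = 0.00137). With the group means removed, other genes led. These were Idh2, Ptov1, Metrnl, Ptpmt1 and Cdc25b for Emcn (0.951 to 0.929) and Mrps24, Osgep, Eloa, Dpt and Itpr2 for Cd34 (0.972 to 0.961). Dpt, a matrix protein gene, was on the fibroblast list. The points share arrays and their normalization, and r is the highest of 12393 genes in each case.

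**Figure D5:**
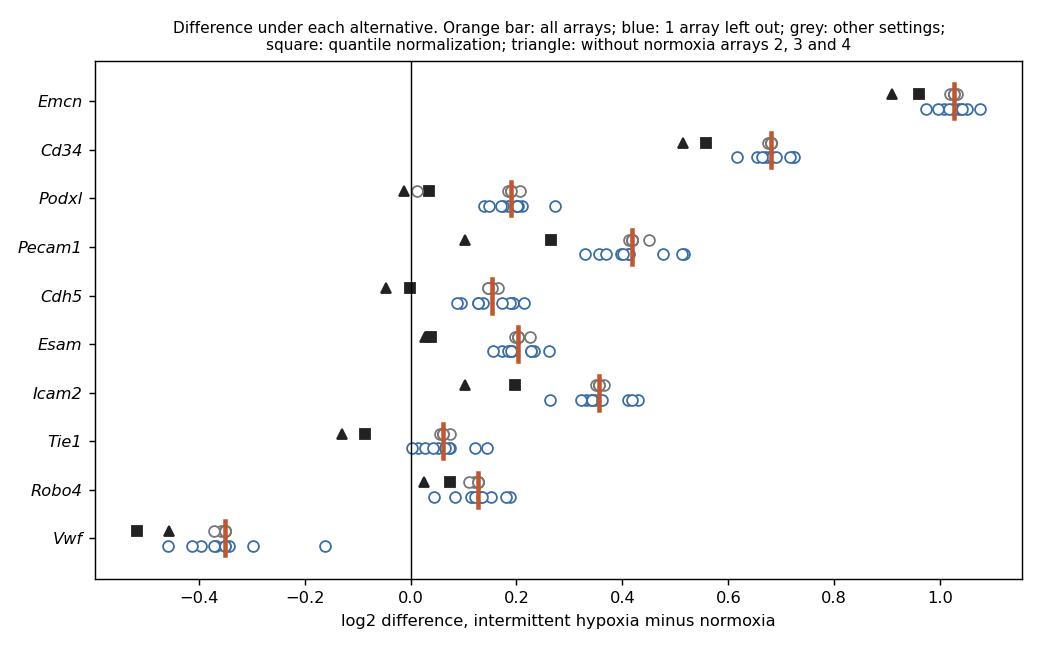
Log2 difference between intermittent hypoxia and normoxia (horizontal axis) of each member with all arrays (orange bar), with each array left out in turn (blue circles) and under the other settings (grey circles), with quantile normalization as a square and the arrays without normoxia 2, 3 and 4 as a triangle. Emcn stays between 0.91 and 1.08 and Cd34 between 0.51 and 0.72, while the points of Podxl, Cdh5 and Tie1 reach both sides of 0.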

How the data were processed

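Whole-lung RNA of 10 mice was measured on 1 array each. The deposited values are log2 probe set levels. The submitters' processing notes list affy and RMA, with no role, version or setting, so how the authors normalized the arrays to each other is not given in the sources used here. Arrays differed in spread, which can move small differences of bright probe sets.

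Probe sets were named from the platform annotation, which gave 1 symbol for 20380, several for 691 and none for 1555. A limma 3.58.1 fit (R 4.3.3) over all probe sets, unfiltered, compared the groups two-sided, with Benjamini-Hochberg adjustment and a threshold of 0.05. The p-values measure the spread between arrays, 1 per animal, so differences between animals and between arrays are not separated. Precision is limited by the number of arrays. Means of a list are means of log2 values centred per gene. Named genes were all members, up to 3 genes of each other list with the smallest p among those that passed, or 1 where none did, and 5 genes by likeness. A few others, among them Hhex, Msn, Prox1, Cd3e and Cd8a, were named where a count or a limit turned on them. The members and lists were chosen with earlier results of these data known. The alternatives were SAM with 100 permutations, a replicate block, quantile normalization, median centring, a filter on level, eBayes options, arrayWeights, a threshold of 0.10, averaging a gene's probe sets and arrays left out. Reading the left-out arrays and quantile normalization for the other lists as well was chosen after seeing the data. The limma and SAM code was tested on simulated data.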

Additional observations from a re-analysis of the deposited data

Results flagged for a closer look

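The second probe set of Podxl was lower on hypoxia array 2 than on any other hypoxia array, at a log2 level of 6.95 against 7.47 for the nearest one, a gap of 0.944 of the group's range. The main probe set of Podxl was 11.60 on that array, within the range of its group. In 24 sets of 5 arrays (12 probe sets in 2 groups) this was the 1 value that stood apart in this way, and chance gives about 1 in 20.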

How the results depend on the processing

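Emcn kept its direction and its call in all 20 alternatives (0.91 to 1.08), and Cd34 in 19 of 20, failing without normoxia arrays 2 to 4 (0.51). Some of the 20 could hardly fail for these genes. A threshold of 0.10 cannot lose a call made at 0.05. Averaging a gene's probe sets left the values of Emcn and Cd34 unchanged, as neither has a further probe set. Leaving out 1 array at a time gave 1003 to 4800 called probe sets and 2 to 5 called members. Over these the log2 differences ran from 0.14 to 0.27 for Podxl, 0.33 to 0.52 for Pecam1, 0.16 to 0.26 for Esam and 0.26 to 0.43 for Icam2. Against 2699 probe sets and 2 members with all arrays, SAM called 4521 probe sets, and Icam2 then passed (0.36). ArrayWeights called 4132 and 4 members, adding Pecam1 (0.45) and Icam2 (0.37), and a threshold of 0.10 called 4954 and the same 4 members (0.42 and 0.36). The filter on level also added Pecam1 (0.42) and Icam2 (0.36), giving 4 members, with fewer probe sets tested. The replicate block called 1755 probe sets, with Emcn and Cd34 as the called members. Deviations of same-numbered arrays correlated from -0.24 to 0.22. Arrays of different number were not compared in this way, so these values cannot decide whether the numbers mark pairs. Quantile normalization moved the share of higher calls from 71.2% to 59.1% and turned Cdh5 (-0.0010) and Tie1 (-0.085). Without normoxia arrays 2 to 4, 16 probe sets, 1 member and 0 pairs of members passed, and Podxl (-0.013), Cdh5 (-0.047) and Tie1 (-0.13) turned negative, with fewer samples. Beyond what the construction of each alternative shows, the cause was not tested. The number of arrays limits precision: the 95% intervals of the 8 members that did not pass reach from -0.73 (Vwf) to 0.73 (Pecam1).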
